A study of Mus musculus with 6 samples.

Results

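Glutamate receptors other than mGluR6 were examined in retinal nuclei of rd10 mice, a strain (B6.CXB1-Pde6b-rd10/J) in which a mutation of the rod phosphodiesterase gene Pde6b leads to loss of rods and then of cones. The 30 genes were taken by symbol from the 32285 genes of the files. They are the AMPA subunits Gria1 to Gria4, the kainate subunits Grik1 to Grik5, the NMDA subunits Grin1, Grin2a to Grin2d, Grin3a and Grin3b, the delta subunit Grid1, the metabotropic receptors Grm2, Grm3, Grm4, Grm5, Grm7 and Grm8, and the auxiliary proteins Neto1, Neto2, Cnih2, Cnih3, Cacng2, Cacng3 and Cacng4. All mice carried the rd10 allele, all were injected in the vitreous at postnatal day 18 (P18), and all retinas were collected at P20. The 2 groups differed in what was injected, which was 20 ng of the cytokine IL-27 or saline. Saline had replicates 1, 2 and 6 and IL-27 had replicates 4, 5 and 10, which are 3 libraries each and are given in this order throughout, with no untreated and no wild type retina. The labels do not say whether a library is 1 retina or a pool, so the tests below measure the spread between these 6 libraries.

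The 6 libraries held 8968 to 9965 barcodes and 36678332 to 48260748 UMIs (unique molecular identifiers, which mark single captured RNA molecules), and 52025 nuclei were retained. Pairs of libraries shared 18 to 30 barcodes. Of these nuclei, 49467 fell into 13 neuron and glia types, each named from at least 3 markers, and none of the 30 genes was used to place a nucleus. The number of nuclei summed per library was lowest in astrocytes (32 to 65) and horizontal cells (50 to 107) and highest in rods (1882 to 3321). A level is given in CPM, which is the UMIs of a gene per 1000000 UMIs summed over the nuclei of a type in 1 library, and means are given ± SD over the 6 libraries (n = 6). The summed level of 8 rod transcripts, 10316 to 13337 CPM in rods, was 723 to 824 CPM with saline and 417 to 1007 CPM with IL-27 in OFF bipolar cells and 1572 to 1852 CPM with saline and 917 to 2049 CPM with IL-27 in microglia, so RNA of rods was present in both. Levels in microglia are therefore given beside low levels as a background, although for many genes another type had a lower mean.

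Glutamate is the transmitter of photoreceptors, bipolar cells and ganglion cells. AMPA and kainate receptors are fast cation channels, NMDA receptors are channels that need Grin1 and also bind glycine or D-serine, and metabotropic receptors act through G proteins. In the dark, photoreceptors release glutamate steadily, OFF bipolar cells and horizontal cells answer through AMPA and kainate channels, and ON bipolar cells answer through mGluR6, the product of Grm6, which was left out here. The AMPA subunit Gria2, after RNA editing of its pore, makes the channel nearly impermeable to calcium, and the proteins of the Neto, Cacng (TARP) and Cnih families set the gating and trafficking of kainate and AMPA channels.

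Within the AMPA, kainate, NMDA and metabotropic classes, different genes were highest in different types. Amacrine types held the highest mean level of 17 of the 30 genes (7 in GABAergic, 6 in starburst and 4 in glycinergic amacrine nuclei), horizontal cells of 4, rod bipolar cells of 3, OFF bipolar cells of 3, and ON cone bipolar, ganglion and Muller nuclei of 1 each. No gene was highest in rods, cones, astrocytes or microglia. For 17 genes, a different set, the 6 libraries of the highest type all lay above all libraries of the second type. The same type was highest in every library for 23 genes, and for 10 genes the mean was at least 2 times that of the second type. Some amacrine leads overlapped the second type, as for Cnih2 (14.3 CPM in GABAergic amacrine nuclei against 13.01 CPM in rods). These counts were not made over all genes, so they cannot be read as particular to these receptors.

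**Figure D1:**
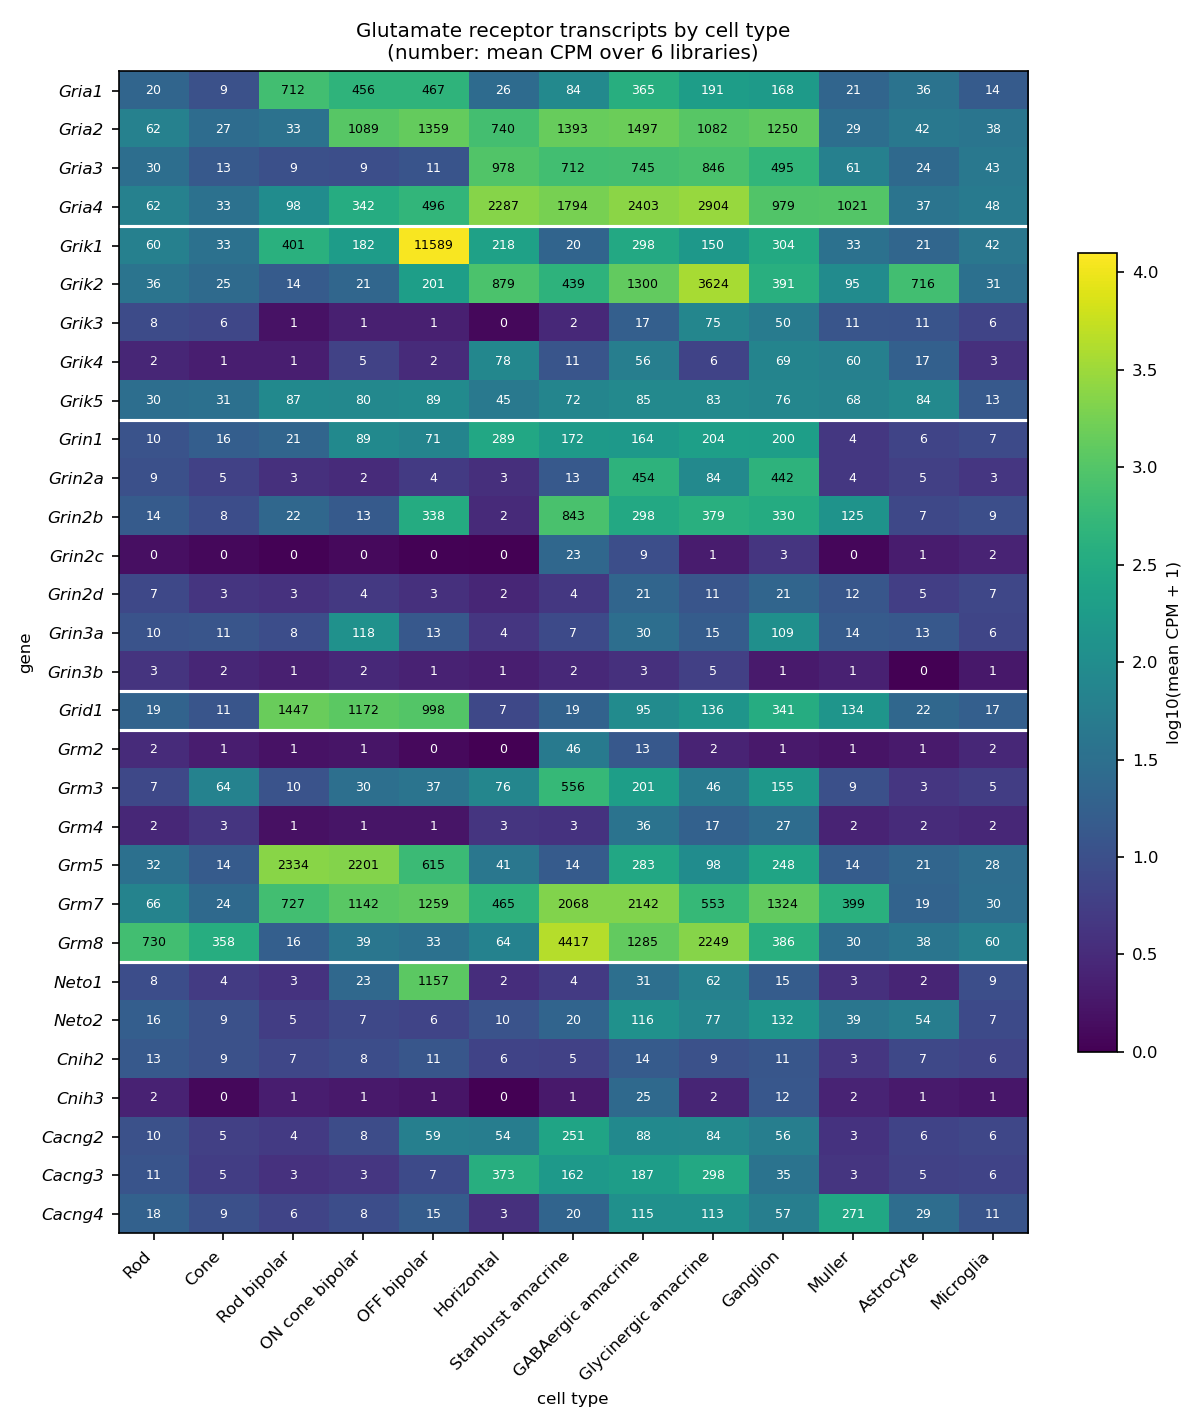
Mean level of each of the 30 genes (rows, grouped from top to bottom into AMPA, kainate, NMDA, delta, metabotropic and auxiliary genes) in each of 13 cell types (columns), as CPM over 6 libraries with colour on a log10 scale. The brightest field is Grik1 in OFF bipolar nuclei at 11589 CPM, and the columns of rods, cones, astrocytes and microglia are dark apart from Grm8 in photoreceptors and Grik2 in astrocytes.

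The AMPA subunits Gria2, Gria3 and Gria4 were spread over the inner retina. Gria2 in GABAergic amacrine nuclei stood at 1494, 1488 and 1477 CPM with saline and 1541, 1504 and 1477 CPM with IL-27. The 6 libraries were within 1477 to 1541 CPM, above those of starburst amacrine nuclei (mean 1393 ± 55.2 CPM) by a small margin, and the OFF bipolar (1359 ± 126 CPM), ganglion (1249.8 ± 34.5 CPM), ON cone bipolar (1089 ± 61.4 CPM) and glycinergic amacrine nuclei (1082 ± 47.9 CPM) followed. Rod bipolar cells, which receive rod input and drive the rod pathway, were the exception among the neurons of the inner retina. Gria2 in rod bipolar nuclei was 43.8, 27.4 and 27.9 CPM with saline and 29.99, 36.4 and 35.4 CPM with IL-27, and these values overlapped those of Muller glia (24.3 to 33.04 CPM) and microglia (24.8 to 50.3 CPM). After each nucleus was thinned to 1000 UMIs, a Gria2 UMI was present in 3.23% (2.63% to 3.93%) of 3030 rod bipolar nuclei, in 3.87% (2.92% to 5.01%) of 1397 microglia and in 63.2% (61.5% to 64.9%) of 3234 ON cone bipolar nuclei, with exact 95% binomial intervals that cover counting error only. Without thinning the shares were 11.5%, 7.19% and 95.7%, at median depths of 4076.5 UMIs in rod bipolar, 2096.5 in microglia and 4264.5 in ON cone bipolar nuclei. The thinned rod bipolar share was no higher than that in microglia and is read as background.

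Gria1 was highest in rod bipolar cells. Gria1 in rod bipolar nuclei was 658, 743 and 665 CPM with saline and 646, 769 and 791 CPM with IL-27, and every library lay above those of OFF (435 to 506 CPM) and ON cone bipolar nuclei (432 to 491 CPM), whose ranges overlapped. Horizontal cells had 25.9 ± 8.98 CPM of Gria1. Gria1 made up 83.4% (range over libraries 82.1% to 85.9%) of the UMIs of the 4 AMPA genes in rod bipolar nuclei and Gria2 3.97% (range over libraries 3.17% to 5.51%), whereas Gria2 made up 58.2% (range over libraries 54.9% to 61.1%) in OFF and 57.5% (range over libraries 56.03% to 58.95%) in ON cone bipolar nuclei. These shares are not corrected for the unequal length of the genes, so that only the same gene can be compared between types.

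Taken by type, Gria3 was lower in bipolar cells than in the other inner neurons, although a glycinergic amacrine cluster given below was also low. The Gria3 level was 10.5 ± 2.5 CPM in OFF, 8.71 ± 3.36 CPM in ON cone and 9.11 ± 1.71 CPM in rod bipolar nuclei. These levels were below those in rods (29.8 ± 3.67 CPM) and microglia (43.1 ± 17.7 CPM). In horizontal cells Gria3 was 1011, 996 and 1030.2 CPM with saline and 1062, 987 and 779 CPM with IL-27, where IL-27 replicate 10 was the lowest, and this range overlapped that of glycinergic amacrine nuclei (718 to 973 CPM). Gria4 was highest in glycinergic amacrine nuclei, with 2869, 3014 and 2868 CPM with saline and 3022, 2924 and 2725 CPM with IL-27, ahead of GABAergic amacrine (2403 ± 116 CPM) and horizontal nuclei (2287 ± 91.9 CPM). Muller glia also held Gria4, with 951, 895 and 1034 CPM with saline and 1161, 1218 and 864 CPM with IL-27. Gria4 there made up 89.97% (range over libraries 85.3% to 94.5%) of the AMPA UMIs, and after thinning 53.4% (52.04% to 54.8%) of 5122 Muller nuclei held a Gria4 UMI, against 4.15% (3.17% to 5.33%) of microglia and 4.41% (2.3% to 7.58%) of 272 astrocytes. Without thinning these shares were 81.5%, 8.17% and 11.4%, at median depths of 4378.5 UMIs in Muller nuclei, 2096.5 in microglia and 3790.5 in astrocytes.

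**Figure D2:**
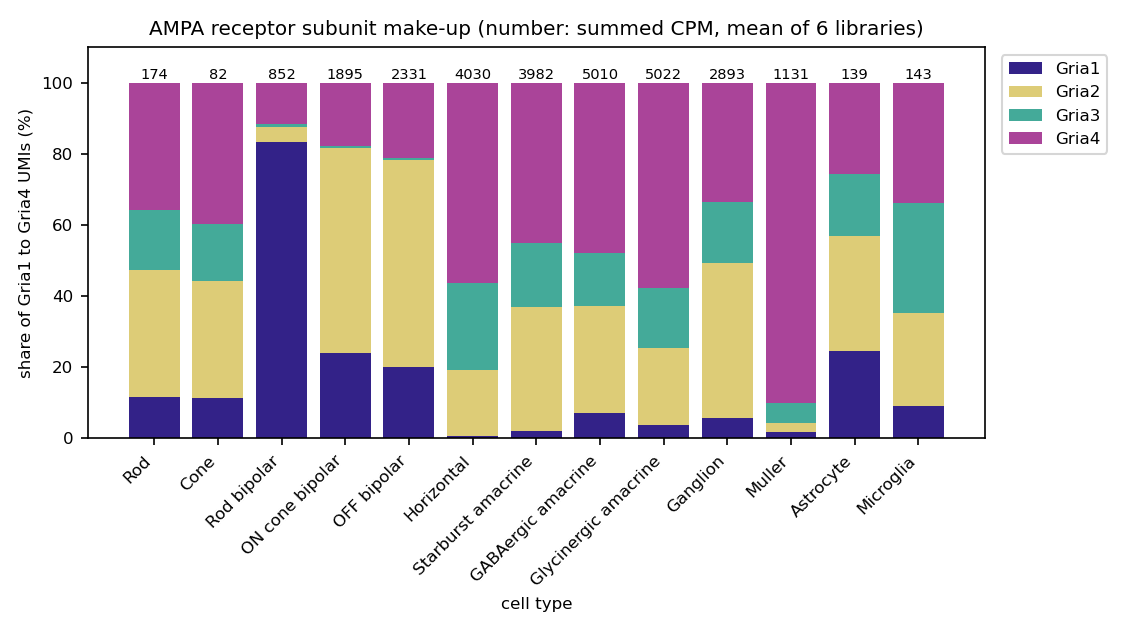
Share of each AMPA gene in the UMIs of Gria1 to Gria4 (bars, %, libraries summed) in each cell type, with the summed level of the 4 genes (CPM, mean of 6 libraries) above each bar. Rod bipolar nuclei are mostly Gria1 and Muller glia mostly Gria4, while Gria2 is the largest part in ON cone and OFF bipolar nuclei. In rods, cones, astrocytes and microglia the summed level was 81.8 to 174 CPM.

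The auxiliary proteins of AMPA receptors were divided among types in another way. Cacng4, a TARP that slows AMPA channels, was highest in Muller glia, with 303, 289 and 301 CPM with saline and 314, 274 and 146 CPM with IL-27. IL-27 replicate 10 stood apart at the bottom of this range. The next types, GABAergic (115 ± 6.35 CPM) and glycinergic amacrine nuclei (113 ± 12.3 CPM), did not reach even that library. Cacng2 (stargazin), the founding TARP, was highest in starburst amacrine nuclei (237 to 278 CPM in the 6 libraries), 2.86 times the mean of GABAergic amacrine nuclei. Cacng3 was highest in horizontal cells (329.8 to 466 CPM), where its range overlapped that of glycinergic amacrine nuclei (259 to 338 CPM). Horizontal cells had 53.7 ± 8.55 CPM of Cacng2 and 2.65 ± 1.14 CPM of Cacng4. The cornichons were rare, since Cnih3 reached 24.6 ± 4.02 CPM in GABAergic amacrine nuclei and Cnih2 was between 3.48 CPM in Muller glia and 14.3 ± 1.63 CPM in GABAergic amacrine nuclei, with 13.01 ± 2.57 CPM in rods.

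Among kainate receptors Grik1, the GluK1 subunit through which many OFF bipolar cells are known to sense cone glutamate, was concentrated in a single type. Grik1 in OFF bipolar nuclei stood at 10605, 11424 and 11212 CPM with saline and 9792, 12419 and 14084 CPM with IL-27. All 6 values were far above the second type, rod bipolar nuclei (362 to 459 CPM), and the ratio of the means was 28.9. Grik1 made up 97.5% (range over libraries 96.7% to 98.1%) of kainate receptor UMIs in OFF bipolar nuclei. After thinning, 85.8% (84.5% to 87.1%) of 2832 OFF bipolar nuclei held a Grik1 UMI, compared with 10.4% (9.33% to 11.5%) of ON cone bipolar nuclei and 3.72% (2.79% to 4.85%) of microglia. Without thinning these shares were 95.3%, 22.9% and 7.61%, at median depths of 4227, 4264.5 and 2096.5 UMIs.

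Neto1, an auxiliary protein that changes the gating of kainate receptors, was also highest in OFF bipolar nuclei. Neto1 in OFF bipolar nuclei was 1229, 1167 and 1048 CPM with saline and 1232, 1246 and 1022 CPM with IL-27, 18.5 times the mean of glycinergic amacrine nuclei (62.5 ± 9.64 CPM). The related Neto2 was not found with it, with 5.92 ± 2.92 CPM in OFF bipolar nuclei, and its highest levels were in ganglion (99.7 to 149.8 CPM) and GABAergic amacrine nuclei (90.6 to 129 CPM), which overlapped.

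Grik2 (GluK2) was highest in amacrine cells, and OFF bipolar nuclei held 201 ± 27.6 CPM. Glycinergic amacrine nuclei held 3699, 3593 and 3243 CPM with saline and 3524, 3891 and 3795 CPM with IL-27, followed by GABAergic amacrine nuclei (1300.3 ± 67.6 CPM) and horizontal cells (879 ± 123 CPM). Astrocytes, the glia of the nerve fibre layer, held 559, 898 and 630.3 CPM with saline and 927, 570.2 and 712 CPM with IL-27, and 51.5% (45.4% to 57.5%) of 272 thinned astrocytes had a Grik2 UMI against 7.85% (7.13% to 8.62%) of Muller glia and 2.58% (1.81% to 3.55%) of microglia. Without thinning these shares were 83.8%, 23.8% and 4.96%, at median depths of 3790.5, 4378.5 and 2096.5 UMIs. The other kainate subunits were low. Grik3 was highest in glycinergic amacrine nuclei (63.7 to 91.8 CPM), Grik4 in horizontal (65.3 to 102 CPM) and ganglion nuclei (55.6 to 87.6 CPM), which overlapped, and Muller glia held 59.96 ± 11.7 CPM of Grik4. Grik5 (GluK5), which needs another kainate subunit to form a channel, had means between 12.9 CPM in microglia and 89.1 CPM in OFF bipolar nuclei, and its first 4 types (OFF bipolar, rod bipolar, GABAergic amacrine and astrocytes) could not be ordered, since their ranges over libraries overlapped.

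**Figure D3:**
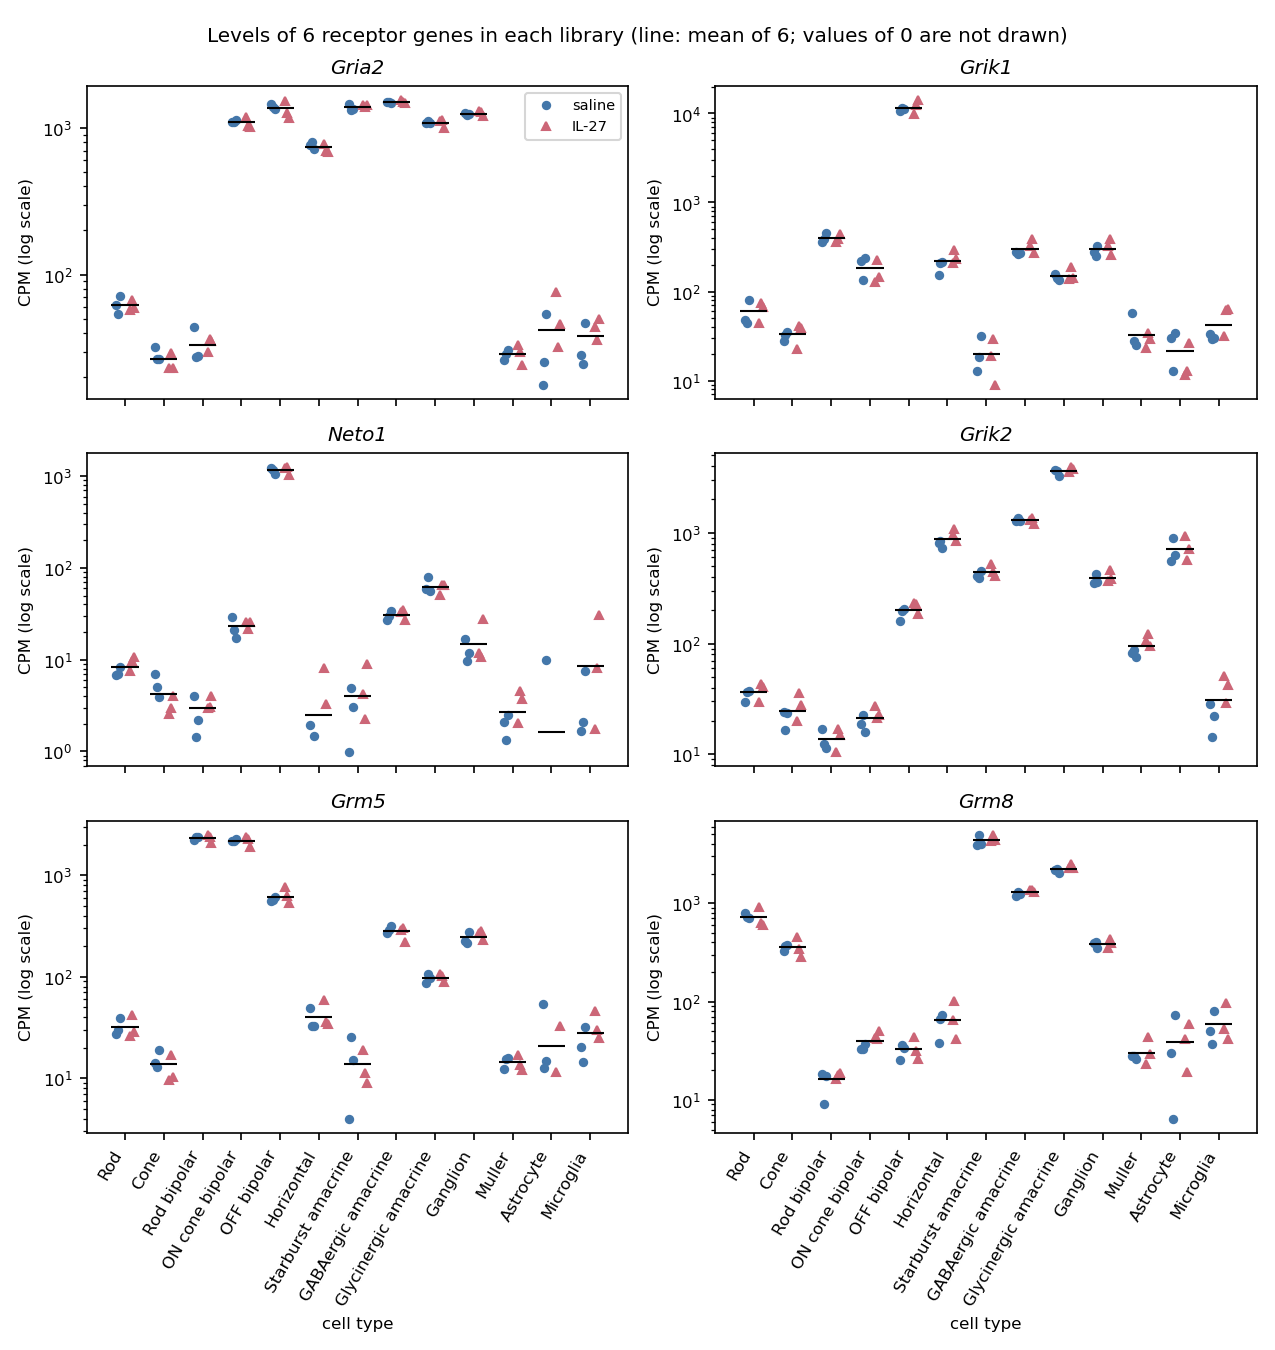
Level of Gria2, Grik1, Neto1, Grik2, Grm5 and Grm8 (CPM, log axis) in each of 13 cell types, with 1 circle for each saline library, 1 triangle for each IL-27 library and a line at the mean of 6; values of 0 are not drawn. Libraries of the same type lie close together next to the differences between types, as for Grik1, which in OFF bipolar nuclei ranges from 9792 to 14084 CPM.

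The OFF bipolar nuclei were not uniform for these genes. They formed 6 clusters, which are called here by their 2 leading genes. Grik1 was 24016 CPM in the cluster of Nfib and Slitrk6 (22469 to 27444 CPM over libraries), 21633 in that of Tafa4 and Lama2 (19406 to 25616), 11994 in that of Erbb4 and Slit2 (9147 to 14340.3) and 5949 in that of Cdh8 and Nxph1 (5059 to 7106). It was 981 CPM in the cluster of Hs3st2 and Fat4 (786 to 1187) and 769 CPM in that of Nxph1 and Wls (572 to 1151), so that 4 clusters were high and 2 low. Neto1 followed a different split, with 4006 CPM in the Cdh8 and Nxph1 cluster (3729 to 4551) and 5.69 to 411 CPM in the other 5. The 2 clusters low in Grik1 had the highest NMDA subunit Grin2b (686 and 933 CPM, against 15.01 to 379.7 CPM), the highest Gria4 (778 and 743 CPM, against 214 to 523 CPM) and the highest Grm5 (1402 and 2490.3 CPM, against 108 to 442 CPM). The clusters are a description of these nuclei and were not tested against each other.

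In the 6 clusters of ON cone bipolar nuclei, Gria2 was between 642 and 1629 CPM, so the low Gria2 of rod bipolar nuclei had no counterpart there. Grin3a, an NMDA subunit that lowers calcium flux, was 396 CPM in the cluster of Sulf1 and Reln (322 to 527 over libraries) and 266 CPM in that of Skor2 and Gm32884 (203 to 321), and 7.79 to 18.1 CPM in the other 4. Grid1 was 119 CPM in the Skor2 and Gm32884 cluster and 897 to 1807 CPM in the others. The cluster of Hs3st4 and Sox6 had 78.2 CPM of Grm7, the lowest of the 15 rod, ON cone and OFF bipolar clusters, with the bipolar clusters given no type set aside.

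**Figure D4:**
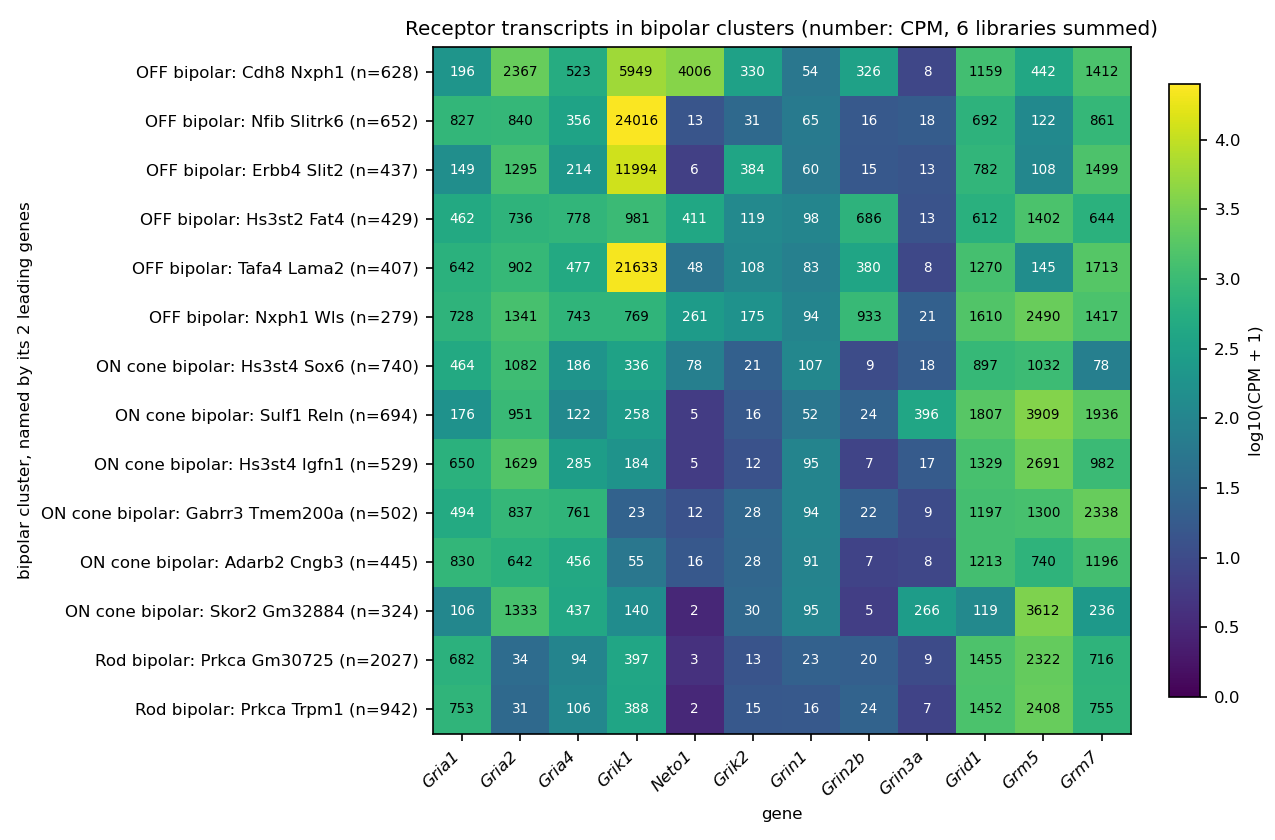
Level of 12 receptor genes (columns) in the 14 rod, ON cone and OFF bipolar clusters with at least 100 nuclei (rows, by type, leading genes and number of nuclei), as CPM over the summed libraries with colour on a log10 scale; a rod bipolar cluster of 61 nuclei and the bipolar clusters given no type are not drawn. Grik1 runs from 769 to 24016 CPM among OFF clusters, Neto1 marks 1 of them, and the 2 rod bipolar clusters have 30.7 and 34.3 CPM of Gria2.

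Grin1, the subunit that every NMDA receptor needs, was highest in horizontal cells, with 248, 309 and 297 CPM with saline and 281, 276 and 324 CPM with IL-27, above glycinergic amacrine (204 ± 7.31 CPM) and ganglion nuclei (199.8 ± 9.33 CPM), whose ranges overlapped. The glutamate-binding GluN2 subunits were at background in these same horizontal nuclei, since Grin2a was 2.63 ± 2.9 CPM, Grin2b 2.07 ± 1.87 CPM, Grin2c 0 CPM in each of the 6 libraries and Grin2d 1.73 ± 1.91 CPM, against 3.4, 8.8, 1.58 and 6.55 CPM in microglia. Horizontal cells were thus the type with the most Grin1 and with little of the other NMDA genes, and Grin1 made up 96.2% (range over libraries 95.6% to 97.1%) of their NMDA UMIs.

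Grin2a and Grin2b were highest in different types. Grin2a was 458, 458 and 429.6 CPM with saline and 458, 470.4 and 453 CPM with IL-27 in GABAergic amacrine nuclei, a range that overlapped that of ganglion nuclei (403 to 519 CPM), while the third type, glycinergic amacrine nuclei, had 84.5 ± 12.7 CPM. Grin2b was 806, 869.9 and 712 CPM with saline and 722, 917 and 1031 CPM with IL-27 in starburst amacrine nuclei, the cells that give direction selectivity, with 13.1 ± 7.14 CPM of Grin2a in those nuclei. Glycinergic amacrine (379 ± 53.8 CPM), OFF bipolar (338 ± 23.2 CPM) and ganglion nuclei (329.6 ± 14.2 CPM) had similar Grin2b with overlapping ranges, and ON cone (13.2 ± 3.9 CPM) and rod bipolar nuclei (22.1 ± 6.87 CPM) were low. Of the minor subunits, Grin2c was highest in starburst (13.6 to 29.3 CPM), Grin2d in GABAergic amacrine (18.6 to 23.6 CPM) and ganglion nuclei (17.9 to 23.02 CPM), and Grin3a in ON cone bipolar (87.8 to 139.97 CPM) and ganglion nuclei (73.1 to 148 CPM), the last 2 pairs overlapping. Grin3b had 96 UMIs in all glycinergic amacrine nuclei (3.22 to 5.83 CPM), which is too few for an order of types.

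Grid1, a delta receptor that binds cerebellins at synapses and is not opened by glutamate, was highest in the 3 bipolar types. Rod bipolar nuclei held 1382, 1405 and 1501 CPM with saline and 1496, 1457 and 1439 CPM with IL-27, and all libraries lay above those of ON cone bipolar nuclei (1078 to 1311 CPM), followed by OFF bipolar nuclei (998 ± 71.7 CPM). Ganglion nuclei were next with 341 ± 20.3 CPM.

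Among the metabotropic receptors, Grm5, a group I receptor that couples to phospholipase C, was 2228, 2379 and 2407 CPM with saline and 2512, 2395 and 2082 CPM with IL-27 in rod bipolar nuclei, which overlapped ON cone bipolar nuclei (1913 to 2387 CPM). The third type, OFF bipolar nuclei, had 615 ± 85.9 CPM. Group II receptors, which lower cyclic AMP, were highest in starburst amacrine nuclei among the 13 types, with Grm2 at 39.5 to 62.8 CPM and Grm3 at 658, 600.4 and 625 CPM with saline and 502, 507 and 445 CPM with IL-27. Both lay above every library of GABAergic amacrine nuclei, whose means were 12.7 CPM for Grm2 and 201 CPM for Grm3. Cones held 64.4 ± 7.55 CPM of Grm3, against 6.66 ± 1.75 CPM in rods and 4.61 ± 3.26 CPM in microglia.

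Of the group III receptors, the relatives of mGluR6, Grm8 was 3906, 4959 and 4029 CPM with saline and 4261, 4959.7 and 4388 CPM with IL-27 in starburst amacrine nuclei, 1.96 times the mean of glycinergic amacrine nuclei. Grm8 also had the highest CPM of the whole list in photoreceptors, without correction for gene span. In photoreceptors mGluR8 is known as an autoreceptor that lowers calcium entry at the terminal. Rods held 799, 727 and 701 CPM with saline and 912, 634 and 604 CPM with IL-27, and cones held 326, 368 and 376 CPM with saline and 449.9, 343 and 287 CPM with IL-27. After thinning, 40.8% (39.9% to 41.8%) of 10555 rod nuclei had a Grm8 UMI (3829 shallower rods were left out), against 1.62% (1.2% to 2.13%) of rod bipolar nuclei and 3.65% (2.73% to 4.77%) of microglia. Without thinning these shares were 42.9%, 6.01% and 6.35%, at median depths of 1249.5, 4076.5 and 2096.5 UMIs. Grm7 had 2142 ± 87.5 CPM in GABAergic amacrine, 2068 ± 215 CPM in starburst (overlapping ranges), 1324 ± 141 CPM in ganglion, 1259 ± 186 CPM in OFF bipolar, 1142 ± 143 CPM in ON cone bipolar and 727 ± 77.4 CPM in rod bipolar nuclei. Muller glia held 399 ± 79.8 CPM of Grm7. Grm4 was low, with 32.04 to 42.3 CPM in GABAergic amacrine and 23.3 to 34.3 CPM in ganglion nuclei.

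Amacrine nuclei also differed between clusters. In the 9 glycinergic clusters Grik2 ran from 1283 CPM in the cluster of Them7 and Robo3 to 11664 CPM in that of Cntn6 and Gm12128 (11248 to 12438 over libraries), while Gria2 stayed between 1022 and 1221 CPM. Grm8 was 21.8 CPM in the largest glycinergic cluster, that of Tll1 and Kcnh1, and 650.4 to 4291 CPM in the other 8. Gria3 was 1766 CPM in the Tll1 and Kcnh1 cluster, against 27.8 CPM in that of Dnah11 and Gm20063. Among 20 GABAergic clusters, Grm7 ran from 103 CPM (Cyp2j8 and Hs6st3) to 5972 CPM (Maf and Gm40663), and Grin2a from 12.9 CPM (Cntn3 and Sema3a) to 1094 CPM (Olfm3 and Tshr).

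Gene span differed widely, and reads from nuclei include introns. The spans in the GENCODE M21 annotation ran from 5.65 kb for Cnih2 to 922 kb for Grm7, and across the 30 genes, which are not independent replicates, span and level in the highest type went together (Spearman's rho 0.774, Pearson's r of the log10 values 0.784). The build behind the files is not given in the sources used here, so these spans are only a scale. Per kb of span the order of the highest levels was Grik1 in OFF bipolar nuclei (29.4 CPM per kb), Gria2 in GABAergic amacrine nuclei (12.3 CPM per kb), Neto1 in OFF bipolar nuclei (10.4 CPM per kb), Grin1 in horizontal cells (10.3 CPM per kb) and Gria4 in glycinergic amacrine nuclei (7.67 CPM per kb). The ranges over libraries of Neto1 and Grin1 overlapped, and on this scale Grm7 was at 2.32 CPM per kb.

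The second question of the design was whether IL-27 changed these transcripts 2 days after injection. No gene passed the test in any type. Of the 30 genes in 13 types, 261 gene and type pairs had enough counts to be tested with edgeR, and 0 passed an adjusted p of 0.05. Over all genes the same fits called 7 of 144169 pairs (0.00486%), of which 4 were in Muller glia (0.0287% of 13934 genes). At an unadjusted p under 0.05 there were 19 pairs (7.28%, against 3.99% over all genes), 14 higher and 5 lower with IL-27, and in 27 pairs (10.3%, against 9.27%) the groups did not overlap. The median log2 fold change (log2FC, IL-27 over saline, ± SE) of the 261 pairs was 0.05, with all single types' medians over all genes within 0.01 of 0. DESeq2 on the same sums called 1 of 385 pairs, Grin2b in Muller glia, against 0.0352% of gene and type pairs over all genes. Its count at an unadjusted p under 0.05 was 13, for which the share over all genes is not given here.

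By type, the shares over all genes stand in parentheses. In rods 25 genes were tested and 0 passed (0.00755% of all genes did), 1 had an unadjusted p under 0.05 (3.31%) and 1 did not overlap (8.31%). Of 18 genes in cones, 0 passed (0%), with 1 at an unadjusted p under 0.05 (3.68%) and 1 without overlap (9.29%). Rod bipolar nuclei had 19 genes tested, 0 called (0%), 0 under the unadjusted threshold (3.89%) and 1 apart between groups (8.89%). In ON cone bipolar nuclei 21 genes were tested and 0 passed (0% of all genes did), 1 had an unadjusted p under 0.05 (3.76%) and 1 did not overlap (9.04%). Of 21 genes in OFF bipolar nuclei, 0 passed (0%), with 1 at an unadjusted p under 0.05 (3.47%) and 2 without overlap (9.05%). Horizontal cells had 15 genes tested, 0 called (0%), 3 under the unadjusted threshold (4.84%) and 1 apart between groups (10%).

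In starburst amacrine nuclei 22 genes were tested and 0 passed (0% of all genes did), 1 had an unadjusted p under 0.05 (3.27%) and 2 did not overlap (8.6%). Of 30 genes in GABAergic amacrine nuclei, 0 passed (0.0066%), with 1 at an unadjusted p under 0.05 (2.94%) and 2 without overlap (8.36%). Glycinergic amacrine nuclei had 27 genes tested, 0 called (0.0074%), 1 under the unadjusted threshold (3.16%) and 3 apart between groups (8.65%). Of 28 genes in ganglion nuclei, 0 passed (0%), with 1 at an unadjusted p under 0.05 (2.95%) and 4 without overlap (8.67%). In Muller glia 24 genes were tested and 0 passed (0.0287% of all genes did), 5 had an unadjusted p under 0.05 (9.02%) and 6 did not overlap (13.8%). Astrocytes had 2 genes tested, 0 called (0%), 0 under the unadjusted threshold (3.66%) and 0 apart between groups (8.84%). Of 9 genes in microglia, 0 passed (0%), with 3 at an unadjusted p under 0.05 (3.41%) and 3 without overlap (8.22%). Muller glia, horizontal cells and microglia had 3 or more genes at an unadjusted p under 0.05, and the other types had at most 1.

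In their highest types the 30 genes were close between the groups. The log2FC ran from -0.36 for Grm3 in starburst amacrine nuclei to 0.52 for Grin2c in the same type, and the 95% interval of 25 genes excluded a change of 1.5-fold in either direction. For Grik1 in OFF bipolar nuclei the log2FC was 0.15 ± 0.09 (95% interval -0.05 to 0.35), for Gria2 in GABAergic amacrine nuclei 0.03 ± 0.07 (-0.11 to 0.17), for Grm5 in rod bipolar nuclei 0.01 ± 0.09 (-0.18 to 0.19) and for Grm8 in starburst amacrine nuclei 0.09 ± 0.12 (-0.17 to 0.34). Intervals were widest for Grin3b (-0.89 to 0.44), Grin2c (-0.07 to 1.11) and Cacng4 in Muller glia (-0.79 to 0.29). For Grm8 in rods, the cells that degenerate, the log2FC was -0.04 ± 0.14 (-0.34 to 0.25), and in cones it was 0.03 ± 0.15 (-0.29 to 0.35).

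**Figure D5:**
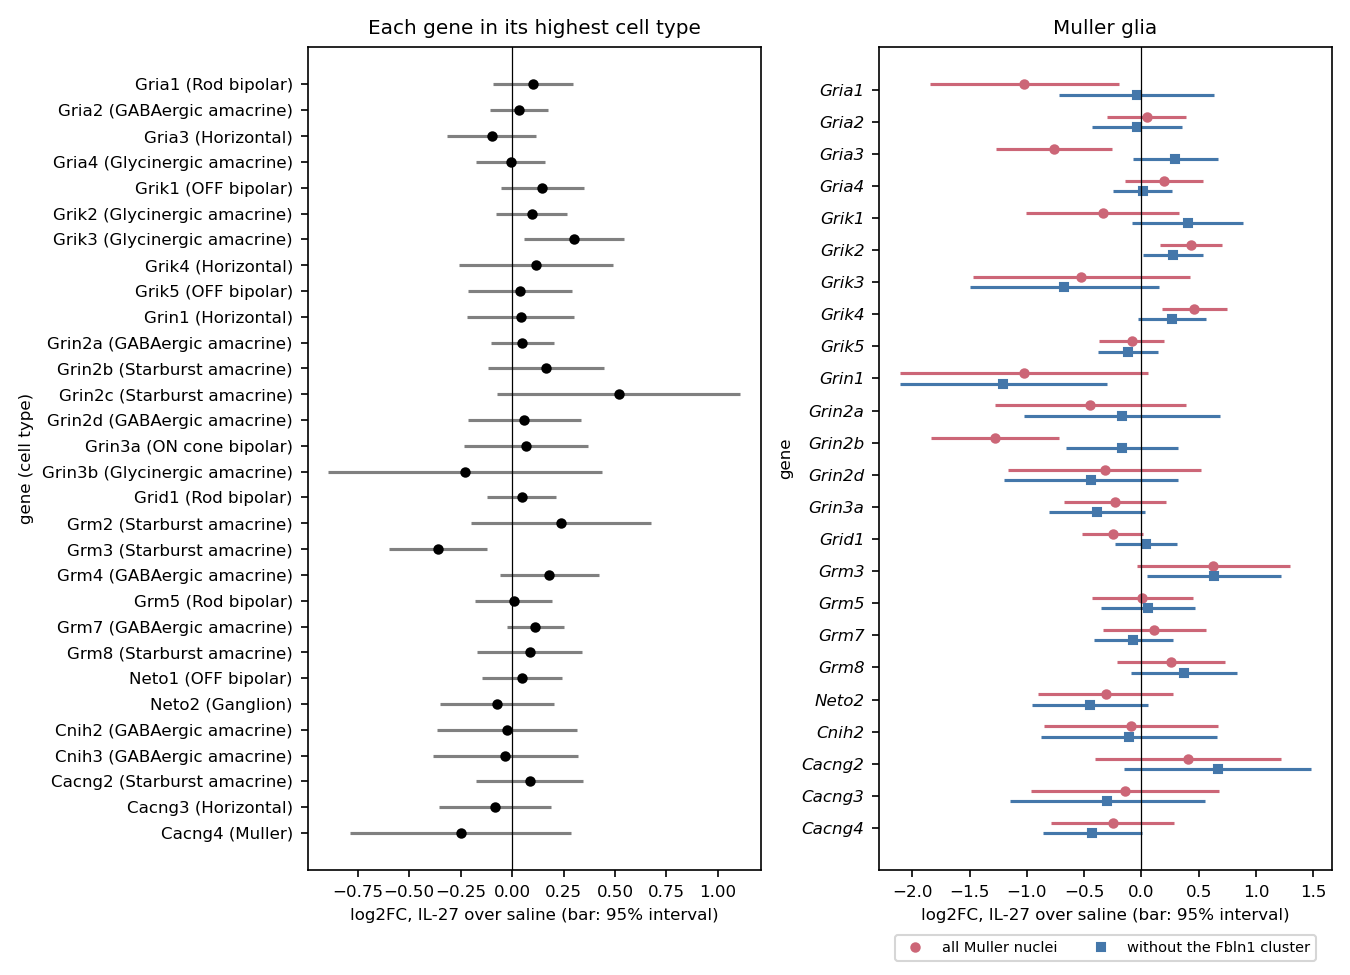
Difference between IL-27 and saline libraries (log2FC, bars 95% intervals from edgeR) for each of the 30 genes in its highest cell type on the left, and for the genes tested in Muller glia on the right, with all Muller nuclei (circles) and without the Fbln1 cluster (squares). On the left the estimates lie between -0.36 and 0.52, and on the right Grin2b, Gria1 and Gria3 move toward or past 0 when the cluster is left out.

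Muller glia held the most pairs at an unadjusted p under 0.05, 5 of 24 genes against 9.02% of all genes there. These were Grin2b, Grik4, Grik2, Gria3 and Gria1, and the median log2FC of the 24 was -0.19, against 0.00251 over all genes there. Grin2b was 188, 204 and 140.1 CPM with saline and 69.6, 44.6 and 103 CPM with IL-27, with no overlap between the groups (log2FC -1.28 ± 0.25, edgeR adjusted p = 0.146). Gria3 was 78.8, 87.7 and 62.4 CPM with saline and 40.9, 29.9 and 63.3 CPM with IL-27, whose groups overlapped by a single pair of libraries in CPM and not after TMM scaling (log2FC -0.76 ± 0.23, adjusted p = 0.328), and Gria1 was 24.5, 37.2 and 20.8 CPM with saline and 6.43, 11.2 and 23.1 CPM with IL-27, with overlap (-1.02 ± 0.37, adjusted p = 0.434). In the other direction, Grik4 had 44.8, 55.96 and 51.9 CPM with saline and 60.8, 69.6 and 76.7 CPM with IL-27 (0.46 ± 0.12, adjusted p = 0.278), and Grik2 had 81.5, 86.8 and 75.7 CPM with saline and 106, 121 and 96.01 CPM with IL-27 (0.43 ± 0.12, adjusted p = 0.302).

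These differences moved with a cluster of 659 nuclei with 10 of 12 Muller markers above the mean of all clusters and none of them among its 10 leading genes, the first of which were Fbln1, Fam129a, Sned1 and Fbn2. The cluster held 20.1%, 21.7% and 11.4% of the nuclei named Muller in the replicates given saline, and 1.49%, 0.719% and 12.3% in those given IL-27. Its receptor transcripts were unlike those of other Muller nuclei. Grin2b was 884 CPM in it and 49.8 CPM in the other Muller nuclei, Gria3 359 and 30.1 CPM, Gria1 137 and 8.74 CPM, and Grid1 343 and 113 CPM. Gria4, Grm7, Cacng4, Grik4 and Grik2 were lower in it than in the other Muller nuclei. Gria4 was 56.4 against 1119 CPM, Grm7 50.9 against 434 CPM, Cacng4 42.4 against 302 CPM, Grik4 3.82 against 64.6 CPM and Grik2 19.5 against 102 CPM.

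Without this cluster the log2FC in Muller glia was -0.17 ± 0.22 for Grin2b (edgeR adjusted p = 0.988), -0.04 ± 0.31 for Gria1 (0.998) and 0.29 ± 0.17 for Gria3 (0.968), the last with its sign turned. With the cluster included, leaving out IL-27 replicate 10, which held most of the cluster's IL-27 nuclei, gave an adjusted p of 0.00182 for Grin2b, 0.022 for Grik2, 0.0201 for Gria1 and 0.00793 for Gria3, and no other library left out called a Muller gene. The share of all genes called without that replicate is not given here. In the fit without the cluster, the log2FC was 0.27 ± 0.14 for Grik4 and 0.27 ± 0.12 for Grik2 (edgeR adjusted p = 0.968 for both). Of the 24 genes tested without the cluster 0 passed (0.0369% of 13540 genes did), and 3 had an unadjusted p under 0.05 (5.01% of all genes), in a fit where the groups did not overlap for 10.3% of all genes. These were Grin1 (-1.21 ± 0.42), Grm3 (0.63 ± 0.27) and Grik2. Grin1 and Grm3 are at 3.46 and 9.07 CPM in those nuclei, beside microglia levels of 7.44 and 4.61 CPM. Gria3 and Gria1 are at 30.1 and 8.74 CPM there, below the microglia level of 43.1 and 13.8 CPM. For Gria3 the microglia level is not the lowest, since ON cone bipolar nuclei had 8.71 CPM. Gria4, the main AMPA gene of Muller glia, had a log2FC of 0.20 ± 0.15 with and 0.01 ± 0.12 without the cluster. Cacng4 in IL-27 replicate 10 was the lowest also among the other Muller nuclei, at 159 CPM against 275 to 349.5 CPM in the other 5 libraries, and its log2FC there was -0.43 ± 0.20 (95% interval -0.86 to 0.00182).

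In horizontal cells 3 of 15 genes had an unadjusted p under 0.05 (4.84% of all genes there), all higher with IL-27, and the median log2FC of the 15 was 0.18, against -0.00524 over all 7672 genes tested. Grm7 was 307, 409 and 301 CPM with saline and 344, 817 and 612 CPM with IL-27, so that replicates 5 and 10 were high and replicate 4 lay within the saline range (0.79 ± 0.20, edgeR adjusted p = 0.427). Without IL-27 replicate 5 the log2FC was 0.48, and without replicate 4 it was 1.07 with an adjusted p of 0.00108. Grik2 was 807, 844 and 735 CPM with saline and 949, 1086 and 852 CPM with IL-27 (0.27 ± 0.10, adjusted p = 0.905), without overlap, and Grik1 was 153, 207 and 215 CPM with saline and 208, 292 and 232 CPM with IL-27 (0.36 ± 0.15, adjusted p = 0.981), with overlap. The summed amacrine markers in horizontal nuclei were 1339 to 1468 CPM with saline and 1327 to 1555 CPM with IL-27, and the 7 horizontal markers 7529 to 7774 CPM with saline and 7204 to 7657 CPM with IL-27.

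Microglia had 3 pairs of 9 (3.41% of all genes there), Grid1, Grik1 and Grik2, all with low levels. Grid1 was 8.37, 2.07 and 14.9 CPM with saline and 29.99, 22.1 and 22.4 CPM with IL-27 from 56 UMIs in all (1.57 ± 0.50, edgeR adjusted p = 0.99958). Grik1 was 33.5, 28.9 and 29.8 CPM with saline and 31.8, 62.7 and 64.3 CPM with IL-27 (0.76 ± 0.32, adjusted p = 0.99958). Grik2 was 28.4, 14.5 and 22.3 CPM with saline and 51.2, 29.01 and 41.9 CPM with IL-27 (0.83 ± 0.36, adjusted p = 0.99958). The groups overlapped for Grik1 alone. With all nuclei summed the log2FC was 0.41 for Grid1 and 1.75 for Grik1, and without doublet removal that of Grid1 was 0.44. The median log2FC of the 9 genes was 0.56, against -0.00724 over all 8350 genes tested. Beside these, the 6 rod bipolar markers in microglia summed to 209 to 264 CPM with saline and 263 to 397 CPM with IL-27 and the 8 OFF bipolar markers to 30.99 to 66.96 CPM with saline and 44.1 to 81.1 CPM with IL-27, and their part in these differences was not tested.

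The remaining named pairs were single genes in a type. Grm3 in starburst amacrine nuclei, listed above, did not overlap between the groups (log2FC -0.36 ± 0.11, edgeR adjusted p = 0.99991). In the upward direction, Grid1 in OFF bipolar nuclei was 909, 970.1 and 932 CPM with saline and 1023, 1077 and 1074 CPM with IL-27 (0.20 ± 0.07, adjusted p = 0.999), and Grm8 in ON cone bipolar nuclei was 32.6, 32.8 and 36.96 CPM with saline and 42.6, 41.4 and 50.6 CPM with IL-27 (0.41 ± 0.14, adjusted p = 0.998), both without overlap. The Grm8 values are below the microglia mean of 59.7 CPM. Grik3 in glycinergic amacrine nuclei (67.1 ± 5.56 CPM with saline and 82.3 ± 11.1 CPM with IL-27) and Grik1 in GABAergic amacrine nuclei (270.2 ± 7.995 and 325 ± 57.5 CPM, SD over 3 libraries) overlapped. The last pairs with an unadjusted p under 0.05 were Grik4 in ganglion nuclei (0.28 ± 0.12), Grm7 in cones (0.50 ± 0.22, at a mean of 23.9 CPM) and Cacng2 in rods (-0.56 ± 0.25, at 9.56 CPM). The 12 immediate early genes, which report recent activity or stress, summed to 124 to 179 CPM with saline and 79.6 to 97.5 CPM with IL-27 in GABAergic amacrine nuclei and to 108 to 121 CPM with saline and 70.5 to 104 CPM with IL-27 in OFF bipolar nuclei, and their part in these differences was not tested.

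A list of 35 partner genes was tested in the same way. Some hold receptors at the synapse (the Dlg, Dlgap, Shank, Homer and Grip scaffolds) or move them (Nsf, Pick1). Others act on them (Camk2a, Camk2b, pentraxins, further TARPs and Shisa proteins). Adar and Adarb1 edit RNA, and Adarb2 is a related gene that is not counted here as an editor. Of 353 pairs tested 0 passed and 18 had an unadjusted p under 0.05 (5.10%, against 3.99% over all genes), 10 higher and 8 lower, with a median log2FC of 0.03. The 5 pairs of smallest p were Dlg2 (PSD-93) in Muller glia at 483, 538 and 361 CPM with saline and 297, 238 and 333 CPM with IL-27 (-0.65 ± 0.16, edgeR adjusted p = 0.238), Adarb2 in GABAergic amacrine nuclei (0.27 ± 0.08), Dlgap1 in Muller glia (-0.36 ± 0.11), Shank2 in cones (0.33 ± 0.12) and Dlgap2 in Muller glia (-1.15 ± 0.41). Without the Fbln1 cluster the Muller values were 0.02 ± 0.12 for Dlg2, -0.20 ± 0.10 for Dlgap1 and -0.33 ± 0.38 for Dlgap2. DESeq2 called 1 partner pair, Dlg2 in Muller glia, with the cluster included, against 0.0352% of all gene and type pairs. Under DESeq2 10 partner pairs had an unadjusted p under 0.05, for which the share over all genes is not given here.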

How the data were processed

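Nuclei of 6 rd10 retina libraries were sequenced by the study with a droplet method. The authors deposited whole UMI counts per gene and barcode, made with Cell Ranger (9.0.1 in the submitters' processing notes, 8.0.1 in the file headers) on a 10x mouse reference whose build is not given in the sources used here, with no normalization. Seurat 5.2.1 was used for the study's own annotation, which was not used here.

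A barcode was retained if its UMIs exceeded 500, its genes numbered 200 or more and its mitochondrial share was below 5% (56205 of 56634), and 4180 were removed by Scrublet score (scanpy 1.11.5, expected rate 8%). With 2000 variable genes that left out the 30 genes, 25 components and 20 neighbours, nuclei were clustered (igraph 0.11.9 Louvain, resolution 0.5, seed 20), and bipolar and amacrine nuclei were clustered again. Clusters were named from marker lists, by rules set after their values were seen, and 918 nuclei with markers of unlike classes, 1059 amacrine and 227 bipolar nuclei without a class and 354 vessel nuclei were set aside. Counts were summed per library and type, leaving out nuclei whose log2 depth was further than 2 median absolute deviations from the middle of their type. Sums were filtered (filterByExpr, 10 counts) and given TMM factors, and the quasi-likelihood test of edgeR 4.0.16 (R 4.3.3) was used, with Benjamini-Hochberg adjustment over all genes of a type. SEs were taken from the F statistic. Types were not tested against each other. Thinning drew 1000 UMIs per nucleus. The fits were tested on simulated data. Alternatives were DESeq2 1.42.0, its size factors, no filter, all nuclei, no doublet removal, doubled resolution, Muller glia without the Fbln1 cluster and each library left out. DESeq2 without that cluster was added after seeing the data. The genes, lists and tests were chosen with earlier results of these data known. Named are all 30 genes, the 15 pairs and the 5 partner pairs of smallest p.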

Additional observations from a re-analysis of the deposited data

How the results depend on the processing

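The count of receptor genes called between IL-27 and saline was 0 with edgeR and depended on the setting. It was 1 with DESeq2 (Grin2b in Muller glia) and 4 without the filter on low counts (Grm7 in horizontal cells and Grin2b, Gria1 and Gria3 in Muller glia), and it ran from 0 to 4 when single libraries were left out. Without IL-27 replicate 10 the 4 were Grin2b, Grik2, Gria1 and Gria3 in Muller glia, and without IL-27 replicate 4 the 1 was Grm7 in horizontal cells. With DESeq2 on Muller nuclei without the Fbln1 cluster the count was 0. Partner genes called were 0, with 1 under DESeq2, 2 without the filter (Dlg2 and Dlgap2 in Muller glia) and 0 to 3 with libraries left out, the 3 again without IL-27 replicate 10. The other settings gave 0 for both lists. Shares over all genes are not given here for the fits without the filter or with a library left out. Their counts therefore cannot be read as particular to these genes. For why each setting made these calls, the cause was not tested.

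The log2FC of Gria3 in Muller glia reversed to 0.29 without the Fbln1 cluster (0.28 with DESeq2), and that of Grik1 in horizontal cells to -0.021 without doublet removal. Gria3 in the Muller nuclei outside that cluster was below its microglia level and above its ON cone bipolar level (8.71 CPM). Of the 15 receptor pairs of smallest p, the other 13 kept their sign under every alternative run. Single partner pairs were compared only without the Fbln1 cluster, where Dlg2 in Muller glia went from -0.65 to 0.02, and the receptor pairs ranked after the 15 were not compared singly. The highest cell type was the same for 23 to 30 of the 30 genes, lowest by thinned share. By that share Gria2 and Grm7 were highest in starburst amacrine nuclei and Grik5 in rod bipolar nuclei. Grik4, Grin2a, Grin2d and Grin3a were then highest in ganglion nuclei. Without doublet removal Gria3 and Cacng3 were highest in glycinergic amacrine nuclei, as was Gria3 with doubled resolution. In 9 gene and setting pairs the level in the highest type moved by at least its SD over libraries. Without doublet removal Grik1 and Neto1 in OFF bipolar nuclei were 8412 and 877 CPM, and Grik2 in glycinergic amacrine nuclei was 2219 CPM. With doubled resolution that Grik2 level was 2730 CPM. Other levels rose, as Grik3 in glycinergic amacrine nuclei to 96.2 CPM without doublet removal. No paired analysis was possible because the groups share no replicate number. In astrocytes, with 32 to 65 nuclei summed per library, 2 of the 30 genes had enough counts to be tested.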

Other observations

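Vessel nuclei, which entered none of the comparisons, held 2 of the metabotropic receptors. In pericytes Grm7 was 1261, 2498 and 1459 CPM with saline and 2407, 1274 and 949 CPM with IL-27, from 410 UMIs in 101 nuclei, and Grm3 was 749.5, 1303 and 420.5 CPM with saline and 709.9, 1044 and 349 CPM with IL-27, from 199 UMIs. The lowest library of each was above the 6 libraries of endothelial nuclei, at 30.9 to 140.1 CPM for Grm7 and 0 to 35.9 CPM for Grm3. The other genes of the list had means of at most 176 CPM in pericytes. A pericyte library held 12 to 24 nuclei, so these levels rest on few cells, and the groups were not tested.

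Grik1 in endothelial nuclei was 21.7, 46.3 and 493 CPM with saline and 30.02, 28.8 and 24.1 CPM with IL-27, where saline replicate 6 alone was high. An endothelial library held 23 to 47 nuclei, so this level rests on few cells, and its source was not tested.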
